A study of Oryctolagus cuniculus with 4 samples.

Results

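The genes of WNT signalling described here were the ligands, receptors, secreted inhibitors, intracellular transducers and TCF/LEF factors of the pathway, chosen by gene symbol from the annotated transcript table and not by their levels. Earlier results of these data were known when the genes were chosen. The rule found 53 genes of 20294 in all, or of 13225 with a symbol. They were measured in 4 intact semitendinosus tendons, a hamstring tendon that surgeons use as a graft, each from a different female New Zealand White rabbit of 193 days. The tendons formed 1 group with no treatment and no control group, so the design allows levels, within-tendon comparisons and the spread between animals. Each tendon was scraped free of surface muscle, frozen and ground whole, and polyadenylated RNA was sequenced. The title names allografts, while other labels name autografts or intact tendon; the tissue is called intact tendon here.

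WNT proteins are secreted lipid-modified ligands that bind frizzled receptors together with a co-receptor. In the canonical branch, LRP5 or LRP6 is the co-receptor, and binding stops a destruction complex of AXIN, APC and kinases from marking beta-catenin for degradation, so that beta-catenin enters the nucleus and acts with TCF/LEF factors. Other branches run through ROR or RYK receptors and act on cell polarity and calcium. Secreted frizzled-related proteins (SFRPs) and WIF1 bind WNTs outside the cell, DKK1 and sclerostin block LRP5 and LRP6, and R-spondins acting through LGR receptors keep frizzleds on the surface. In connective tissue the pathway is known for its part in the choice between fibroblast, cartilage, bone and fat fates.

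Library totals lay between 19759696 and 30646052 estimated counts. The limit that a count of 0 allows, 3 counts, corresponded to between 0.0979 and 0.152 CPM, counts scaled to the library total, for counting error only. Levels are given as TPM, a share of all transcripts that corrects for transcript length. Tenocyte markers were present, with 9 of 9 measured at a mean of at least 1 TPM, led by DCN, COL1A2 and COL1A1 at 14507, 8636 and 8270 TPM; SCX and COMP had no entry. Their summed levels were 66081, 49682, 32649 and 29226 TPM in tendons 1 to 4, highest in tendon 1 and lowest in tendon 4. Skeletal muscle markers, with 12 of 12 at 1 TPM or more and led by ACTA1, TNNC1 and TNNI1, summed to 9192, 35633, 18557 and 23106 TPM in tendons 1 to 4. Tendon 4 stood apart in fast fibre markers (8 of 8 at 1 TPM or more, with MYL1, TNNC2 and MYLPF first), at 3622 TPM against 36.0, 127 and 57.9 TPM in tendons 1 to 3. The tissue was sequenced in bulk, so fewer cells of a type and less RNA per cell cannot be told apart.

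Of the 53 genes, 33 (62.3%) had a mean of at least 1 TPM, against 63.0% of all genes and 75.4% of the genes with a symbol, from which the members were chosen. Their median level was 15.2 TPM, beside 19.5 TPM for all genes at that level. Only 2 genes, CTNNB1 and SFRP2, exceeded 100 TPM, and 24 reached 10 TPM. All 53 together took 0.189% ± 0.0253 of TPM (SD, n = 4). Receptors and transducers were mostly above 1 TPM, with 7 of 8 frizzleds, 4 of 4 co-receptors and alternative receptors, and 4 of 4 cytoplasmic transducers. Ligands were mostly below it, with 5 of 16 above 1 TPM. Secreted inhibitors had 7 of 11, R-spondins and LGR receptors 4 of 6, and TCF/LEF factors 2 of 4. Several family symbols had no entry and are not analysed here: WNT7B, WNT9A, WNT9B, FZD8, FZD10, LRP5, RSPO4, SFRP1, DVL1, DVL3, AXIN1 and APC2. Counts for each class therefore cover part of the family.

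**Figure D1:**
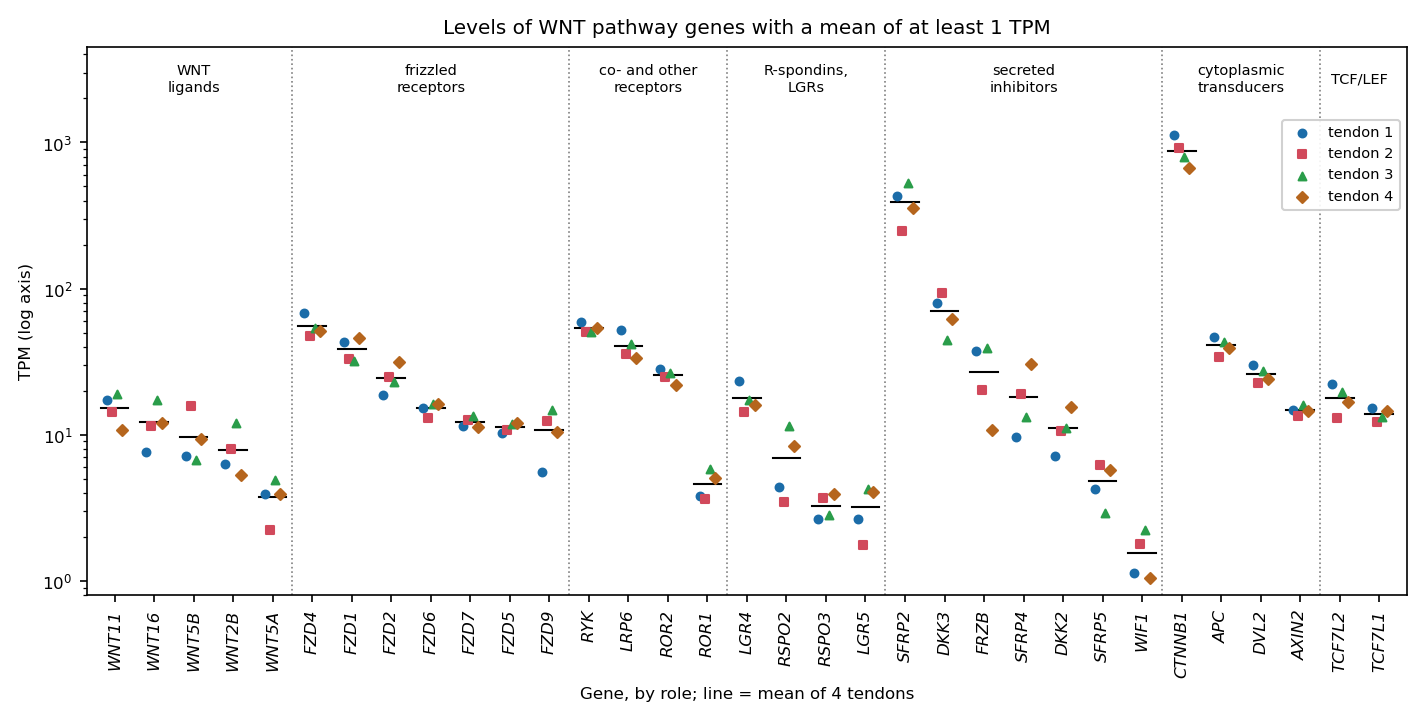
TPM (log axis) of the 33 genes averaging 1 TPM or more, in tendons 1 to 4 (points), grouped by role, with the mean of 4 as a line. CTNNB1 and SFRP2 stand above 100 TPM in every tendon, and no ligand reaches 20 TPM in any.

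Among ligands, WNT11, a non-canonical WNT, had the highest mean at 15.3 ± 3.55 TPM (SD, n = 4). It stood at 17.3, 14.4, 18.9 and 10.8 TPM in tendons 1 to 4. WNT16, known for a part in cortical bone, followed at 7.62, 11.5, 17.4 and 12.1 TPM, a mean of 12.2 ± 4.03. Tendon 3 was the highest for both, and the order of the 2 genes held in 3 of 4 tendons. WNT5B, like WNT5A a ligand of the non-canonical branch, stood at 7.20, 15.7, 6.70 and 9.29 TPM, highest in tendon 2 and lowest in tendon 3. WNT2B, a ligand of the canonical branch, had 6.28, 8.04, 11.95 and 5.31 TPM. WNT5A had the lowest mean of the 5, 3.74 ± 1.12 TPM, and stayed under WNT2B in all 4 tendons. In CPM, which is not corrected for length, WNT2B exceeded WNT5A in only 1 tendon, so this order depends on the annotated lengths (5435 bases for WNT5A and 1929 for WNT2B). WNT5B (1140 bases) exceeded WNT2B in 3 tendons in TPM but in 2 in CPM, with means of 6.09 and 8.36 CPM. The place of WNT5B thus depends on length too. In order of mean TPM, the first 4 ligands overlapped in range each with the next of these 4, so their ranking did not exceed the spread between tendons.

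The other 11 ligands had means below 1 TPM. WNT10B, a canonical ligand, was just under it at 0.999 ± 0.568 TPM (n = 4), on 5, 13, 22 and 33 counts in tendons 1 to 4. WNT6, WNT8A and WNT2 had means of 0.738, 0.625 and 0.470 TPM. WNT4, a ligand of epithelial and urogenital development, had 13 counts in tendon 4 and 1 or 2 in the others, and its mean of 0.249 TPM became 0.0889 without tendon 4. WNT10A, WNT7A, WNT8B, WNT3A, WNT3 and WNT1 had at most 6 counts in any tendon. Of these, WNT1, WNT3, WNT3A and WNT7A, as well as RSPO1, did not exceed 3 counts in any of the 4 tendons, so their levels rest on very few reads; RSPO1 had 1, 3, 2 and 2 counts. WNT1 and WNT10B lie on OryCun2.0 chromosome 4 and overlap by 1120 bases on opposite strands, and whether the counting used strand is not given in the sources used here (WNT10B from 33265517 to 33268758, WNT1 from 33267639 to 33280776). WNT6 and WNT10A lie 7333 bases apart on chromosome 7. All 4 of these linked genes were under 1 TPM.

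Frizzleds, the seven-pass receptors for WNTs, were more abundant than their ligands. FZD4, which also binds the ligand norrin in blood vessels, led them at 67.8, 47.7, 53.5 and 51.5 TPM in tendons 1 to 4 and averaged 55.1 ± 8.79 (SD, n = 4; ENSOCUG00000006445.3, OryCun2.0 chromosome 1, 129790800 to 129795550). FZD1 had 42.9, 32.8, 32.2 and 45.75 TPM. FZD2 had 18.8, 24.9, 22.8 and 31.5 TPM. The ranges of these 3 receptors did not overlap, and their order was the same in all 4 tendons. FZD6 came next, at 15.3, 13.04, 16.3 and 16.2 TPM (15.2 ± 1.51), below FZD2 in every tendon. In TMM-normalised CPM the order was the opposite in every tendon, with means of 42.2 for FZD6 and 22.05 for FZD2 (37.25 for FZD1), so it depends on the annotated lengths (5098 and 1647 bases). FZD7 (12.2 ± 1.05), FZD5 (11.2 ± 0.843) and FZD9 (10.7 ± 3.89) followed, and from FZD6 on each overlapped in range with the next. FZD9 varied most, with 5.53, 12.3, 14.7 and 10.4 TPM. FZD3 stood at 0.439 TPM, on 8 to 16 counts. Counts of FZD1, FZD2, FZD5, FZD6 and FZD7 were not whole numbers, as happens when reads that fit several transcripts are divided among them; which transcripts shared reads was not tested.

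Of the co-receptors and alternative receptors, RYK, LRP6 and ROR2 lay between 25.5 and 53.5 TPM in mean, and ROR1 was lower at 4.58 TPM. RYK, a WNT receptor with an inactive kinase domain, had the most even level of the class, at 59.2, 50.7, 50.8 and 53.5 TPM (53.5 ± 4.01, n = 4). LRP6, the canonical co-receptor, had 52.25, 35.6, 41.6 and 33.6 TPM (40.8 ± 8.38). ROR2, a receptor for WNT5A, had 28.3, 25.04, 26.6 and 22.1 TPM, and its relative ROR1 3.80, 3.62, 5.87 and 5.04 TPM. RYK exceeded LRP6, LRP6 exceeded ROR2, and ROR2 exceeded ROR1 in 4 of 4 tendons, although the ranges of RYK and LRP6 overlapped. In TMM-normalised CPM, LRP6 exceeded RYK in every tendon, with means of 117 and 87.6, and the annotated lengths were 5267 and 3002 bases.

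Among R-spondins and their receptors, LGR4, the widely expressed R-spondin receptor, led at 23.3, 14.4, 17.3 and 15.9 TPM (17.7 ± 3.90, n = 4). RSPO2 had 4.37, 3.47, 11.4 and 8.34 TPM, higher in tendons 3 and 4 than in tendons 1 and 2 without overlap. LGR5, an R-spondin receptor and stem cell marker of several epithelia, showed the same split, with 2.64, 1.77, 4.26 and 4.07 TPM. RSPO3 had 2.67, 3.66, 2.84 and 3.91 TPM. LGR6 (0.289 TPM) and RSPO1 (0.0586 TPM) were below 1 TPM. ROR1, of the class before, was also higher in tendons 3 and 4 without overlap. In TPM, so were DKK2, WNT16, FZD5 and FZD6 of the other classes. The share of all genes with this split was not computed. Summed macrophage, adipocyte and endothelial markers were higher in tendons 3 and 4 too, with endothelial sums of 247, 305, 412.5 and 389 TPM in tendons 1 to 4. Summed tenocyte and cartilage markers were lower in tendons 3 and 4 than in tendons 1 and 2. The 10 macrophage markers, all at 1 TPM or more with C1QC, CSF1R and MRC1 first, summed to 93.3, 75.5, 179 and 239 TPM in tendons 1 to 4. The 7 adipocyte markers, all at 1 TPM or more with ADIPOQ, FABP4 and LPL first, summed to 277, 451, 599 and 1144 TPM. None of these markers was at 0, and their part in the RSPO2 and LGR5 levels was not tested.

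Secreted inhibitors were dominated by SFRP2, a frizzled-related protein that binds WNTs. It stood at 431, 246, 528 and 355 TPM in tendons 1 to 4 and averaged 390 ± 119 TPM (SD, n = 4), 198th of all named genes (ENSOCUG00000016660.3, OryCun2.0 chromosome 15, 10007155 to 10014824). SFRP2 held 74.6% of the mean summed TPM of its class. DKK3, a divergent dickkopf that, unlike DKK1, is not an established LRP6 blocker, came next at 79.6, 93.6, 44.4 and 62.1 TPM (69.9 ± 21.3). FRZB, also called SFRP3 and known from joint cartilage, had 37.7, 20.3, 39.1 and 10.8 TPM, and was lowest in tendon 4. SFRP4, another frizzled-related protein, had 9.70, 18.95, 13.2 and 30.3 TPM, highest in tendon 4 and lowest in tendon 1. DKK2, an LRP6-binding dickkopf, followed SFRP4 in having its extremes in these 2 tendons, with 7.11, 10.6, 11.1 and 15.4 TPM. Cartilage markers, 7 of 9 at 1 TPM or more and led by COL11A2, COL2A1 and ACAN, summed to 922.5, 517, 396 and 329 TPM, with COL9A1 and COL9A2 below 1 TPM. Fast fibre, adipocyte and macrophage markers were highest in tendon 4. The part of these cells in the levels of FRZB, SFRP4 and DKK2 was not tested.

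The remaining inhibitors were rare. SFRP5 had 4.29, 6.23, 2.93 and 5.78 TPM, and WIF1, which binds WNTs directly, 1.14, 1.80, 2.23 and 1.04 TPM on 13 to 39 counts. DKKL1, taken in by the DKK prefix of its symbol, and DKK4 had means of 0.479 and 0.240 TPM. Whether DKKL1 acts as a WNT inhibitor was not tested. DKK1, the classical LRP6 blocker and a WNT target gene, had 2 to 5 counts per tendon. SOST, which encodes the osteocyte product sclerostin, had 4 counts in tendon 1 and 1 count in each of the others. Both DKKL1 and SOST rested on 1 tendon, with means of 0.236 TPM without tendon 4 for DKKL1 and 0.0265 TPM without tendon 1 for SOST.

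Cytoplasmic transducers were led by CTNNB1, which encodes beta-catenin, a protein of cell-cell junctions as well as of WNT signalling. CTNNB1 had 1118, 915, 798 and 665 TPM in tendons 1 to 4 and averaged 874 ± 192 TPM (SD, n = 4), 91st of all named genes (ENSOCUG00000001468.3, OryCun2.0 chromosome 9, 2775861 to 2788164). It was highest in tendon 1 and lowest in tendon 4, as were the summed tenocyte markers, whose part in it was not tested. Of the single markers, only DCN and MKX had these extremes. TNMD was highest in tendon 4, at 158, 169, 31.7 and 187 TPM in tendons 1 to 4. COL1A1 was lowest in tendon 3, at 3672 TPM against 5354 TPM in tendon 4. APC, a scaffold of the destruction complex, had 46.9, 34.2, 43.1 and 39.1 TPM, of which one annotated transcript held between 81.5% and 83.6%. DVL2, the dishevelled protein that relays the frizzled signal, had 30.0, 22.7, 27.2 and 23.9 TPM. AXIN2, a scaffold of the destruction complex that WNT signalling itself induces, was among the most even, at 14.9, 13.5, 16.0 and 14.5 TPM (14.7 ± 1.03). The ranges of these 4 genes did not overlap. The counts of AXIN2 were not whole, and which transcripts shared its reads was not tested. For APC and DVL2 the counts of single transcripts were not whole, but their sums over each gene were.

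Among the TCF/LEF factors, the DNA-binding partners of beta-catenin, TCF7L2 and TCF7L1 were the expressed members. TCF7L2 had 22.2, 13.01, 19.7 and 16.6 TPM and TCF7L1 15.2, 12.2, 13.2 and 14.6 TPM. TCF7 and LEF1, both known from T cells, had means of 0.733 and 0.856 TPM. LEF1 had 10, 19, 37 and 107 counts in tendons 1 to 4, or 0.315, 0.349, 0.760 and 2.00 TPM. It was highest in tendon 4, and without that tendon its mean was 0.475 TPM. Also highest there were the adipocyte and macrophage markers given above; their part in the LEF1 level was not tested.

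Summed over each class, cytoplasmic transducers had 955 ± 196 TPM and secreted inhibitors 523 ± 106 TPM (SD, n = 4). Frizzleds summed to 168 ± 10.6 TPM and co-receptors and alternative receptors to 124 ± 13.7 TPM. Ligands summed to only 52.2 ± 8.26 TPM, TCF/LEF factors to 33.3 ± 5.24 and R-spondins with their receptors to 31.4 ± 5.47 TPM. In each tendon the inhibitors exceeded the ligands, by 12.8-, 7.18-, 10.3- and 10.4-fold in tendons 1 to 4. With SFRP2 left out the excess was 3.14-, 2.74-, 1.82- and 2.75-fold. The largest remaining inhibitor in every tendon was DKK3, not an established LRP6 blocker, at 79.6, 93.6, 44.4 and 62.1 TPM. Ligands summed to 44.7, 55.4, 62.3 and 46.2 TPM, and the excess without both SFRP2 and DKK3 was not computed. Frizzleds exceeded ligands 3.86-, 2.79-, 2.65- and 3.87-fold. The 4 SFRP genes measured (SFRP2, FRZB, SFRP4 and SFRP5) exceeded the frizzleds 2.80-, 1.89-, 3.52- and 2.25-fold. These sums cover transcripts of the symbols with an entry and carry no test. Without length correction, co-receptors took 0.0257% of CPM against 0.0124% of TPM, more than the 0.0190% of CPM in frizzleds, R-spondins and receptors 0.00717% against 0.00314%, and TCF/LEF factors 0.00540% against 0.00333%. Without its first gene, CTNNB1, the transducer class took 0.00815% of TPM instead of 0.0955%, and inhibitors without SFRP2 took 0.0133% instead of 0.0523%.

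**Figure D2:**
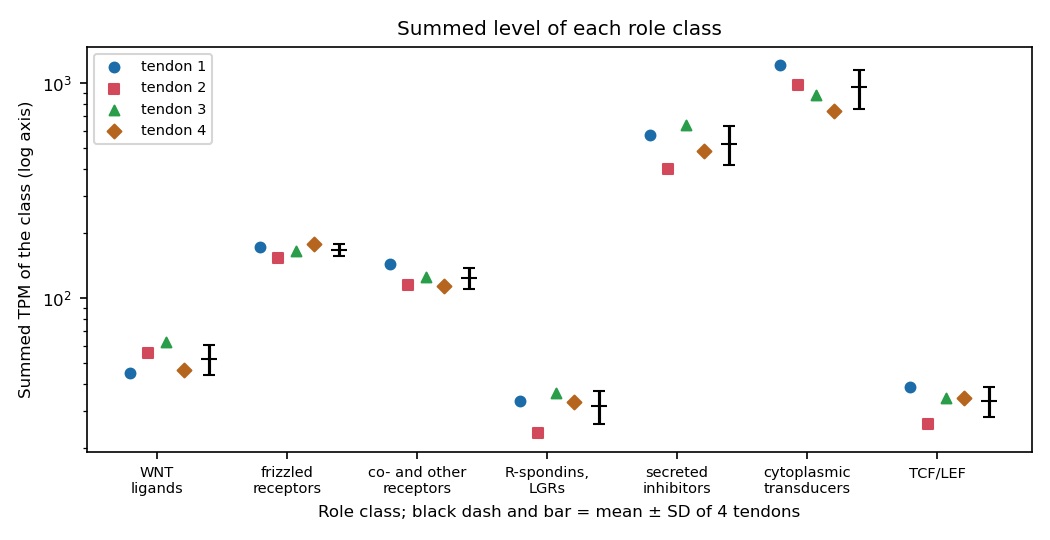
Summed TPM (log axis) of each role class in tendons 1 to 4 (points), with the mean ± SD of 4 tendons as a black dash and bar. Ligands summed to between 44.7 and 62.3 TPM and secreted inhibitors to between 398 and 641 TPM, with no overlap.

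Tendons differed most in the secreted members. Of the 33 genes at 1 TPM or more, 13 (39.4%) differed by 2-fold or more between their highest and lowest tendon in CPM normalised by TMM, a scaling by the bulk of genes, against 19.6% of all genes at that level. None reached 4-fold, as 5.06% of all genes did. The 13 were DKK2, DKK3, FRZB, FZD9, LGR5, RSPO2, SFRP4, SFRP5, WIF1, WNT16, WNT2B, WNT5A and WNT5B. Of 14 secreted members (ligands, R-spondins and inhibitors), 11 were among them, with a median range of 2.31-fold. Of 19 membrane and intracellular members, 2 were, FZD9 and LGR5, with a median range of 1.31-fold. The largest ranges were 3.72-fold for FRZB, 3.15-fold for SFRP4 and 2.99-fold for RSPO2. At the other end, TCF7L1, RYK, AXIN2 and FZD6 varied by 1.11- to 1.14-fold. This division by the place of the protein was chosen after the values were seen and has no test. At 5 TPM or more, the counts were 8 of 10 secreted and 1 of 17 other members, against 12.1% of all genes at that level. Without tendon 3, 7 members had a 2-fold range (21.2%, against 16.8% of all genes). With tendons 1 to 4 left out in turn, 9, 7, 5 and 8 of the same 14 secreted members had one. Of the 19 other members, 1, 1, 2 and 2 did, beside 12.4%, 14.7%, 16.8% and 13.4% of all genes at 1 TPM or more. The secreted count was lowest without tendon 3, where 8 of the 14 were highest. Leaving out a tendon can hardly widen a range, so a fall was largely fixed in advance. These counts therefore cannot decide how far the division rests on 1 tendon.

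**Figure D3:**
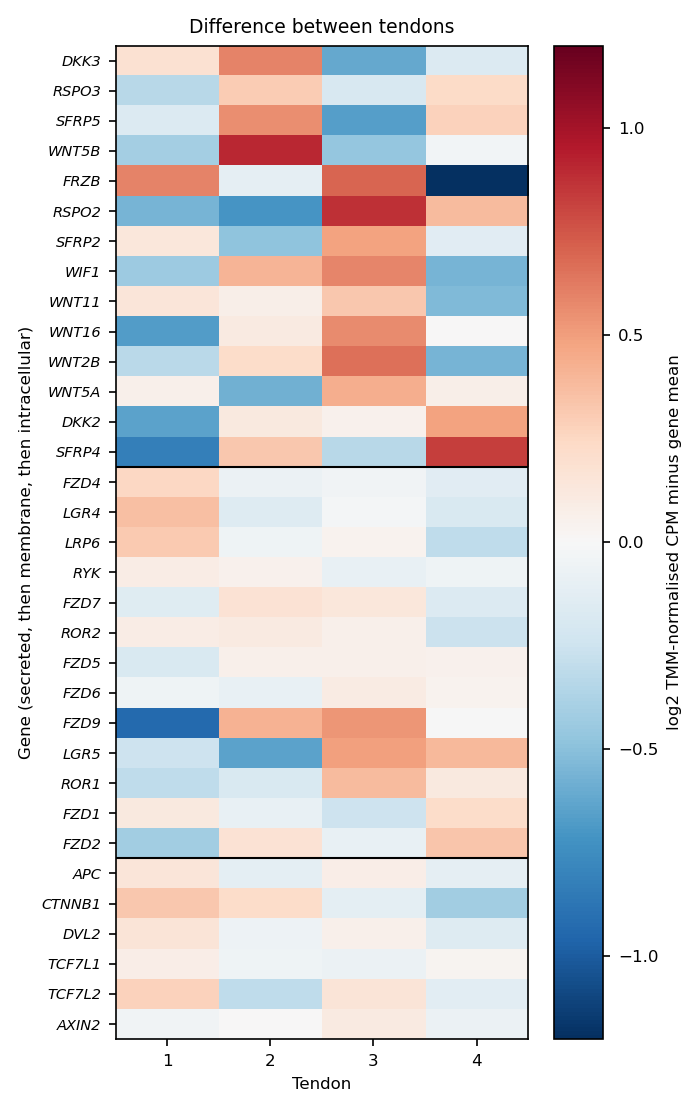
TMM-normalised CPM of the 33 genes in each tendon, as log2 difference from the gene's mean over 4 tendons (red higher, blue lower); horizontal lines part secreted, membrane and intracellular members. FRZB is low in tendon 4, SFRP4 high there, and 8 of the 14 secreted members are highest in tendon 3.

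The tendon with the highest value also differed by class. On the same scale, 14 of the 33 members (42.4%) were highest in tendon 3, against 17.2% of all genes at 1 TPM or more. Tendon 1 was highest for 9 members (27.3%, all genes 30.5%), tendon 2 for 6 (18.2%, all genes 27.8%) and tendon 4 for 4 (12.1%, all genes 24.5%). The 9 genes highest in tendon 1 were APC, CTNNB1, DVL2, FZD4, LGR4, LRP6, RYK, TCF7L1 and TCF7L2, none of them secreted. Those highest in tendon 3 included 8 secreted members (FRZB, RSPO2, SFRP2, WIF1, WNT11, WNT16, WNT2B and WNT5A) with AXIN2, FZD5, FZD6, FZD9, LGR5 and ROR1. Highest in tendon 4 were DKK2, FZD1, FZD2 and SFRP4. Some of these calls were near ties. FZD5 had 11.23, 11.25 and 11.18 TMM-normalised CPM in tendons 2, 3 and 4, and RYK 92.9 in tendon 1 and 90.45 in tendon 2. The division into secreted and other members was, as above, chosen after the values were seen and carries no test. In TPM the number for tendon 2 was 3, since a median gene was lower there by 0.12 on the log2 scale in TPM than in TMM-normalised CPM, relative to its mean over tendons. Endothelial markers, 9 of 9 at 1 TPM or more and led by PECAM1, VWF and CLDN5, had summed levels of 247, 305, 412.5 and 389 TPM in tendons 1 to 4. Of the 9, 6 were highest in tendon 3 and 3 in tendon 4, VWF among the latter with 76.9 TPM there and 56.0 TPM in tendon 3. Their part in the tendon 3 values was not tested. Among the 20 members under 1 TPM, 12 were highest in tendon 4, where 40.9% of all genes under 1 TPM with a count were highest.

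The biological coefficient of variation, the spread between animals beyond counting error, was estimated in edgeR across 12740 genes and covered 35 members. Its median was 0.249 for the members and 0.205 for all genes in the fit. Of the 33 members at 1 TPM or more, 20 lay above the median of all genes of similar TPM. FRZB (0.417), RSPO2 (0.406), WNT5B (0.387) and SFRP4 (0.376) had the highest values among the 33, and TCF7L1 (0.149), FZD6 (0.150) and AXIN2 (0.151) the lowest. Without tendon 1 the medians were 0.195 for members and 0.195 for all genes, and without any other tendon the members' median was the higher. Dixon's ratio, which asks whether 1 tendon stands apart from the other 3, passed its critical value in TPM for 0 of the 33 members, beside 6.48% of all genes at that level.

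**Figure D4:**
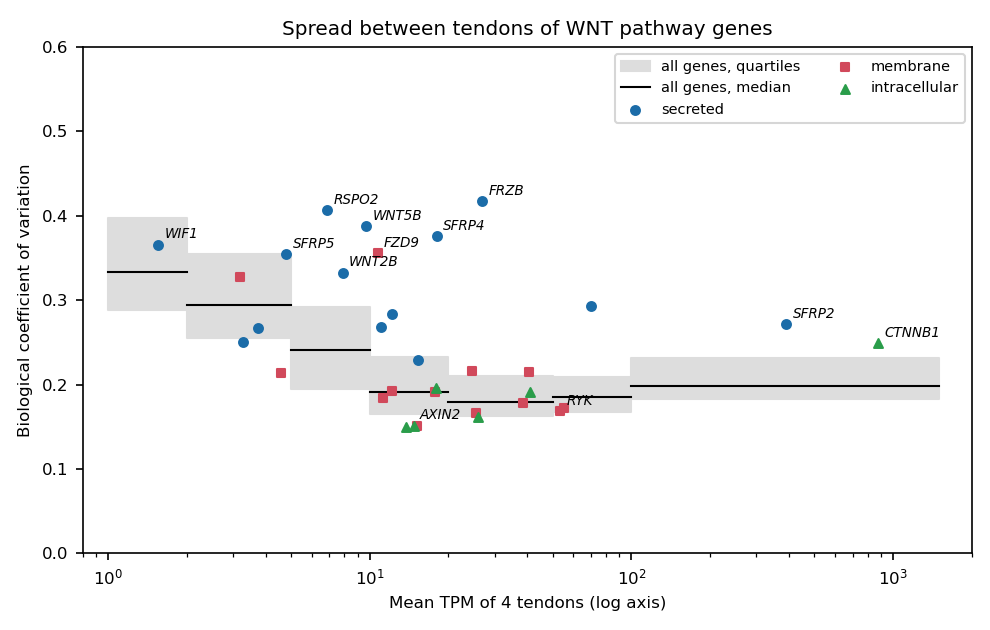
Biological coefficient of variation (edgeR) against mean TPM (log axis) of the 33 genes, marked by place of the protein, over the median and quartiles of all genes in 7 ranges of TPM. FRZB, RSPO2, WNT5B and SFRP4 lie above the third quartile of genes of similar level.

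Ratios between related genes were compared within each tendon, for 7 of 10 planned pairs that had both entries. ROR2 exceeded ROR1 7.27-, 6.76-, 4.47- and 4.31-fold in tendons 1 to 4. LGR4 exceeded LGR5 8.53-, 7.76-, 3.99- and 3.85-fold, and DKK3 exceeded DKK2 11.1-, 8.76-, 3.97- and 4.01-fold. In all 3 pairs, the ratio was higher in tendons 1 and 2 than in tendons 3 and 4. FZD1 exceeded FZD7 2.59- to 3.70-fold in tendons 1 and 2, 2.37-fold in tendon 3 and 4.05-fold in tendon 4. TCF7L2 exceeded TCF7L1 by a smaller factor, between 1.06 and 1.49. WNT5A stood below WNT5B, at 0.551, 0.147, 0.735 and 0.428 times its level. FRZB to SFRP4 was the only ratio that changed side, at 3.85, 1.07, 2.95 and 0.359.

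Of these 7 ratios, 6 lay on one side of 1 in 4 of 4 tendons, each with p = 0.13 (adjusted p = 0.146) in an exact permutation test of signs, two-sided, which is the smallest p that 4 tendons allow, so none could reach 0.05. Mean log2 ratios were 2.47 ± 0.39 for ROR2/ROR1, 2.50 ± 0.61 for LGR4/LGR5, 2.65 ± 0.76 for DKK3/DKK2, 1.63 ± 0.38 for FZD1/FZD7 and 0.35 ± 0.25 for TCF7L2/TCF7L1 (SD, n = 4). For FRZB/SFRP4 the mean was 0.53 ± 1.56 (exact permutation test, p = 0.375, adjusted p = 0.375). The mean for WNT5A/WNT5B was -1.32 ± 1.01 and turned to 0.89 in CPM, which is not corrected for length. The annotated WNT5A transcript has 5435 bases and that of WNT5B 1140, a multiple of 3 as in a model without untranslated regions, so which of these is higher depends on the annotated lengths.

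**Figure D5:**
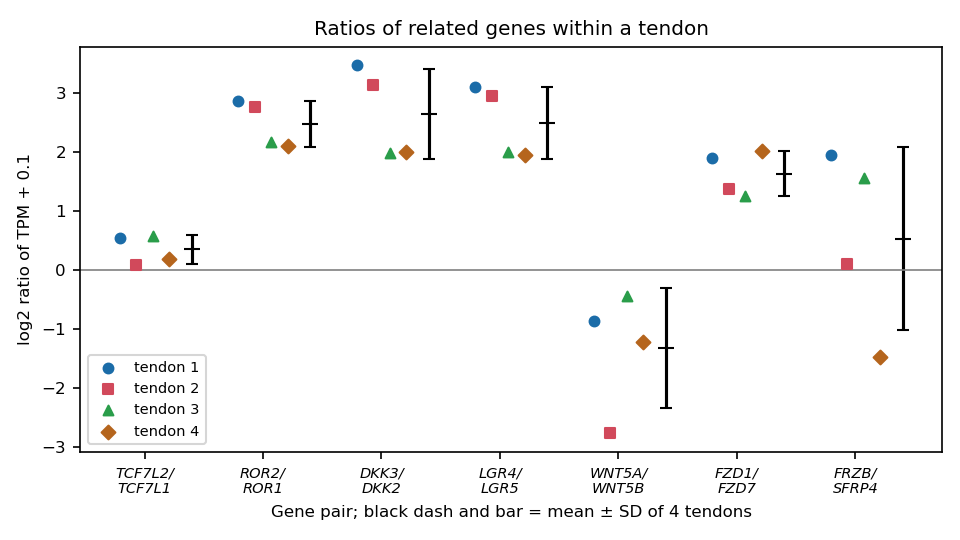
Log2 ratio of TPM + 0.1 of 7 gene pairs in tendons 1 to 4 (points), with the mean ± SD of 4 tendons. All pairs but FRZB/SFRP4 stay on one side of 0, and ROR2/ROR1, DKK3/DKK2 and LGR4/LGR5 are higher in tendons 1 and 2 than in tendons 3 and 4.

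Counts of the other genes of the pathway at 1 TPM or more are to be read against the 63.0% of all genes and 75.4% of genes with a symbol at that level. Of genes for WNT secretion and extracellular handling, 14 of 14 measured were, led by BGN, SERPINF1, WLS and IGFBP4. WLS, which carries WNTs to the surface, had 209 ± 16.8 TPM, and PORCN, which adds their lipid, 8.40 ± 0.719 TPM (SD, n = 4). The list of destruction complex kinases and ubiquitin ligases, which also holds the phosphatase gene PPP2CA, had 15 of 16 at 1 TPM or more. AMER2 was the exception. PPP2CA, CSNK1A1, RNF146 and SIAH1 led that list, and the kinase GSK3B had 25.9 ± 4.69 TPM. Nuclear partners of beta-catenin had 13 of 13, with HDAC1, TBL1XR1, CDC73 and EP300 first. None of the genes at 1 TPM or more in these last 2 lists had a 2-fold range, beside 19.6% of all genes at that level. In the secretion list 4 of 14 had one (SERPINF1, CTHRC1, SOSTDC1 and GPC3). The polarity and calcium branch had 23 of 24, with RAC1, CDC42, ROCK2 and DAAM2 first and CELSR3 below 1 TPM. Of these 23, 3 had a 2-fold range (NFATC2, CAMK2B and CAMK2A).

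Feedback and target genes of the canonical branch had 15 of 20 at 1 TPM or more, near the share of genes with a symbol, the list's members AXIN2, LGR5, DKK1, TCF7 and LEF1 included. JUN (107 ± 8.26 TPM), CD44 (80.2 ± 13.1), BAMBI (37.9 ± 15.6) and DACT1 (29.9 ± 5.69) led them. MYC had 29.5 ± 2.91 TPM. The feedback inhibitors NKD1 (4.81 ± 0.695) and ZNRF3 (4.55 ± 0.682) were lower, and RNF43, which with ZNRF3 removes frizzleds from the surface, had 3.56, 2.35, 1.66 and 1.47 TPM in tendons 1 to 4. DKK1, TCF7, LEF1, FOSL1 and MMP7 were below 1 TPM, and MMP7 was listed at 0 in all 4 tendons. NOTUM, SP5 and CCND1 had no entry. The list had a median of 6.13 TPM, beside 5.65 TPM for all genes of the table. Of its 15 genes at 1 TPM or more, 6 had a 2-fold range, beside the 19.6% of all genes at that level.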

How the data were processed

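The deposited table held unscaled estimated counts for every transcript and its length, 1 column per tendon, per the file headers. Kallisto 0.42.4, bcl2fastq, FastQC and OryCun2.0 are named in the submitters' processing notes without their roles; filters and strand use are not given in the sources used here. TPM were computed from the deposited counts and lengths and summed per gene. Lengths were multiples of 3 for 60.0% of member transcripts and 64.5% of all, and all lengths were for 30 of 53 members, so models may differ in how much untranslated sequence they hold; this was not tested. For the spread, counts summed per gene were rounded, kept where 2 or more tendons had 1 CPM or more, scaled by TMM and fitted with only an intercept in edgeR 4.0.16 under R 4.3.3.

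Members and lists were chosen with earlier results of these data known. Every member is named with its level or count; of other pathway lists the first 4 by mean TPM and 10 fixed genes, of marker lists the first 3. Counts were called whole within 0.001. Ratios used TPM + 0.1 and an exact sign-flip test with Benjamini-Hochberg adjustment over 7 ratios. The Dixon critical value for 4 tendons was 0.829. The spread fit was tested on simulated data: a coefficient of 0.3 came out as 0.301 over 12733 genes, and, with 200 genes changed 8-fold in 1 tendon, as 0.333. In the latter, 100% of changed and 37.6% of unchanged genes had a 2-fold range. The design text names 4 rabbits, so each tendon was taken as 1 animal. Alternatives were CPM, other thresholds and pseudocounts, DESeq2 1.42.0, library totals and each tendon left out. Protein and promoter sequences were not used here.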

Additional observations from a re-analysis of the deposited data

Results flagged for a closer look

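In TPM, 1 tendon stood apart from the other 3 by Dixon's ratio in 8 of the 102 values examined, and about 5.10 would do so by chance. Of all genes at 1 TPM or more, 6.48% passed the same critical value. The fast fibre markers were highest in tendon 4 (Dixon ratio 0.975). Among WNT genes, the values apart were WNT4 in tendon 4 (0.927, 13 counts against 1 or 2), SOST in tendon 1 (0.980, 4 counts against 1), WNT1 in tendon 4 (1.00, 2 counts against 0) and DKK1 in tendon 3 (0.837, 5 counts against 2 or 3). Except for WNT4, these rest on at most 5 counts. Among the other pathway genes examined, IGFBP4 (0.872) and CDC42 (0.872) were highest in tendon 4 and CD44 (0.885) was lowest in tendon 2. The values examined did not take in every gene of the pathway lists. Genes left out include WISP1, at 14.5, 17.65, 16.85 and 50.9 TPM in tendons 1 to 4. CTHRC1 (49.45 TPM) and PTK7 (21.0 TPM) were also left out and also highest in tendon 4. The ratios of the genes left out are not given here, so the 8 is not a count for all pathway genes.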

How the results depend on the processing

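Without 1 tendon, the mean TPM of 11 members, all under 1 TPM, moved by over 1.5 times: LEF1 (0.475), DKKL1 (0.236), LGR6 (0.179), WNT4 (0.0889), WNT8B (0.0285) and WNT1 (0) without tendon 4, WNT6 (0.466) and WNT3 (0.0139) without tendon 2, SOST (0.0265) and WNT7A (0.0298) without tendon 1, and WNT3A (0.0179) without tendon 3. Taking the highest transcript alone moved the mean by over 1 SD for 2 of 7 members with several, APC (33.8 TPM) and DVL2 (20.2 TPM). Of 26 neighbouring pairs within a class, 3 changed order in most tendons in CPM, an alternative chosen after seeing the data: FZD2 exceeded FZD6 in 0 tendons, RYK exceeded LRP6 in 0 and WNT2B exceeded WNT5A in 1. WNT5B exceeded WNT2B in 2 tendons but had the lower mean, 6.16 against 8.35 TMM-normalised CPM. Of 42 alternatives to the ratios, 41 kept their direction; WNT5A/WNT5B turned to 0.89 in CPM. In CPM, the class shares were 0.00740% for ligands, 0.0190% for frizzleds, 0.0257% for co-receptors, 0.00717% for R-spondins and receptors, 0.138% for transducers and 0.00540% for TCF/LEF factors. Chosen after seeing the data, the share was 0.0133% for inhibitors without SFRP2 and 0.00815% for transducers without CTNNB1, and 13 of the 33 genes at 1 TPM had models with lengths other than multiples of 3. The 13 genes with a 2-fold range became 0 at 4-fold and between 7 and 12 when 1 tendon was left out. In TPM, 3 members were highest in tendon 2. Low counts limit the 20 members under 1 TPM, of which 5 had at most 3 counts in every tendon. No paired analysis was possible because the 4 tendons form 1 group, with no second group to pair them with; the ratios compare genes within a tendon.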
